A study of Mus musculus with 40 samples.

Results

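The 8 genes described here, Hmgcs1, Sqle, Idi1, Fdft1, Lss, Cyp51, Insig1 and Srebf2, were chosen by name from a list of cholesterol synthesis and uptake genes, out of 45706 genes in the count table. All 8 matched a single row. Of these, 6 encode enzymes of cholesterol synthesis and 2 encode regulators of the pathway, and none is an uptake receptor. RNA was sequenced from sorted cells in 40 libraries, 4 in each of 10 groups. Tumor-bearing mice carried Cdx2CreERT2 and Apc fl/fl, on a strain labelled C57Bl6/Sv129 in the first sample, and had received tamoxifen at 25 mg/kg at a labelled age of 8 to 10 weeks. The number in the strain label goes up by 1 from one sample of these mice to the next, so the strain is not certain from the labels, and the methods of the study give a wider range of ages. The Cdx2 promoter drives the inducible Cre, which deletes Apc, in colon epithelium. Healthy mice were C57Bl6 without a transgene and without tamoxifen. Strain, transgene, tamoxifen and tumor therefore cannot be told apart in any comparison of tumor-bearing with healthy mice. Neutrophils and monocytes were sorted from the blood of both kinds of mice and from colon tumors, and epithelial (EpCAM+) and stromal (CD45- EpCAM-) cells from tumors and from healthy colon. Library titles name pooled animals for 1 blood neutrophil library of tumor-bearing mice and for 3 blood monocyte libraries of healthy mice.

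Cells make cholesterol from acetyl-CoA through mevalonate, squalene and lanosterol. When sterols are scarce in the endoplasmic reticulum, the transcription factor SREBP2, the product of Srebf2, is released by cleavage and turns on the genes of the pathway. INSIG1 holds the SREBP escort protein in the endoplasmic reticulum when sterols are plentiful, and its own gene is a target of SREBP, which closes a feedback loop. In the colon, dividing epithelial cells need sterols for membranes, and in myeloid cells the pathway is known for its links to inflammation.

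Total counts ranged from 10717873 to 38002939 per library (median 16338416), and mitochondrial genes took 5.34% to 83.9% of them. The highest mitochondrial share was in healthy epithelial library 4, which had the lowest RPKM (read density adjusted for gene length and library size) of its group for all 8 genes. The level of 10 epithelial markers, given as a percent of the tumor epithelial mean (median over the markers), was 79.5% in tumor neutrophil library 1 and 12.7%, 15.5% and 4.72% in libraries 2 to 4, against 0.0615% to 0.102% in the blood neutrophils of the same kind of mice. It was 0.574%, 16.6%, 5.09% and 3.83% in the tumor monocyte libraries and 93.9%, 48.4%, 19.0% and 12.2% in the tumor stromal libraries. In healthy stroma it was 0.200% to 0.409% in libraries 1 to 3 and 13.2% in library 4. The summed RPKM of 7 fibroblast markers was 360 to 2017 in healthy stroma but 6.03 to 24.1 in tumor stroma, so the stromal gate held few fibroblast transcripts in tumors. Neutrophil markers summed to 1904 to 19950 RPKM over all neutrophil libraries and monocyte markers to 1030 to 4545 RPKM over all monocyte libraries, but within each type the tumor and blood libraries of tumor-bearing mice were separate, as given beside those comparisons.

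The promoters are shown because the 8 genes are textbook targets of 1 transcription factor and their levels moved together across libraries. A promoter (from 250 bases before to 50 bases after the start of transcription, RefSeq, GRCm38.p6, the build also called mm10) was found for 6 of the 8 genes, and none for Sqle and Fdft1. A sterol regulatory element core, TCACCCCA, and the CCAAT box bound by NF-Y, a known partner of SREBP, were searched on both strands. Both motifs were chosen after the sequences had been seen. The core was present in Hmgcs1 and Srebf2, and in 511 of all 32851 promoters (1.556%). A CCAAT box was present in all 6, 4 times in Hmgcs1, and in 37.408% of all promoters. Among 12 promoters of other synthesis enzymes, 0 held the core and 11 held a CCAAT box. Capitals mark these motifs in the promoters of the 2 genes that hold the core and, for contrast, of Cyp51, which does not. A match is a string of letters and not a measured site.

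Hmgcs1 (chr13:119690101-119690400, + strand): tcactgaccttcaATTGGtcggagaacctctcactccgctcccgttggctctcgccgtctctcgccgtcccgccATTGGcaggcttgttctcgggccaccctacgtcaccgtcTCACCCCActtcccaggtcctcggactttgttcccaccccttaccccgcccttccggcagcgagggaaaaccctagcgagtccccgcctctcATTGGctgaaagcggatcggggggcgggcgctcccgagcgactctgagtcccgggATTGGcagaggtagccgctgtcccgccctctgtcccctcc
Srebf2 (chr15:82147019-82147318, + strand): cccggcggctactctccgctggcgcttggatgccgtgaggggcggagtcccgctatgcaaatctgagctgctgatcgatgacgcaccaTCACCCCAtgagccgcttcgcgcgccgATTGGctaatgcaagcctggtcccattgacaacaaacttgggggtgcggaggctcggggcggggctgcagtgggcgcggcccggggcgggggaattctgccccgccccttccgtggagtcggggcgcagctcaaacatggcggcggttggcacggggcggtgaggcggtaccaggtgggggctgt
Cyp51 (chr5:4104648-4104947, - strand): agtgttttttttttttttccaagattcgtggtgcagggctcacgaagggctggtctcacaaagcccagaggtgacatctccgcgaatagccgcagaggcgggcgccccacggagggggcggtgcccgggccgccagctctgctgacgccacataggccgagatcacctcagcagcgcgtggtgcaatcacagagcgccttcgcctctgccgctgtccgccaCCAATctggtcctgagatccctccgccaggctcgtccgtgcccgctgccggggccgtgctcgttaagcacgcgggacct

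In Hmgcs1 the core began 137 bases before the start of transcription, with CCAAT boxes (read as ATTGG on the printed strand) beginning at -237, -176, -45 and +10. In Srebf2 the core began at -162 and the single CCAAT box at -135. In Cyp51 the CCAAT box began at -29. The genes themselves lie on 5 chromosomes in mm10: Hmgcs1 (ENSMUSG00000093930) at chr13:119690379-119708260, Sqle (ENSMUSG00000022351) at chr15:59315077-59331192, Idi1 (ENSMUSG00000058258) at chr13:8885501-8892451, Fdft1 (ENSMUSG00000021273) at chr14:63145150-63179578, Lss (ENSMUSG00000033105) at chr10:76531588-76557138, Cyp51 (ENSMUSG00000001467) at chr5:4081145-4104746, Insig1 (ENSMUSG00000045294) at chr5:28071363-28078662 and Srebf2 (ENSMUSG00000022463) at chr15:82147181-82205379. Fdft1 overlaps Ctsb and Cyp51 overlaps Akap9 on the other strand, Hmgcs1, Idi1 and Lss overlap antisense or unclassified transcripts there, and Srebf2 holds Mir33 on its own strand. Whether the counting used strand is not given in the sources used here, so reads from these overlaps cannot be assigned.

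Across the 10 groups, all 8 genes were lowest in healthy blood neutrophils and next lowest in blood neutrophils of tumor-bearing mice, by mean RPKM, the length-adjusted level. The highest mean was in tumor epithelium for Hmgcs1 (12.3 ± 3.82 RPKM, SD, n = 4), Sqle (4.55 ± 0.378), Idi1 (1.33 ± 0.506), Fdft1 (6.36 ± 0.803) and Cyp51 (6.31 ± 3.45). The other genes peaked elsewhere. Lss, the cyclase that makes lanosterol, was highest in healthy epithelium (0.554 ± 0.320 RPKM), with tumor epithelium beside it (0.546 ± 0.302). Insig1 was highest in tumor monocytes (7.39 ± 1.94 RPKM), where it was the most abundant of the 8. Srebf2 was highest in healthy blood monocytes (5.23 ± 0.871 RPKM), against 0.522 ± 0.254 in healthy blood neutrophils. In contrast, Sqle, the squalene epoxidase, was at 0.0523 ± 0.0320 RPKM in healthy blood neutrophils. Neighbouring groups in the order of means overlapped in all but 4 places. Tumor epithelium stood above tumor stroma for Fdft1 without overlap, and blood monocytes stood above blood neutrophils of tumor-bearing mice without overlap for Idi1, Fdft1 and Cyp51. RPKM is not adjusted for the mitochondrial share, so the tests below use TMM scaling, a correction for library composition.

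**Figure D1:**
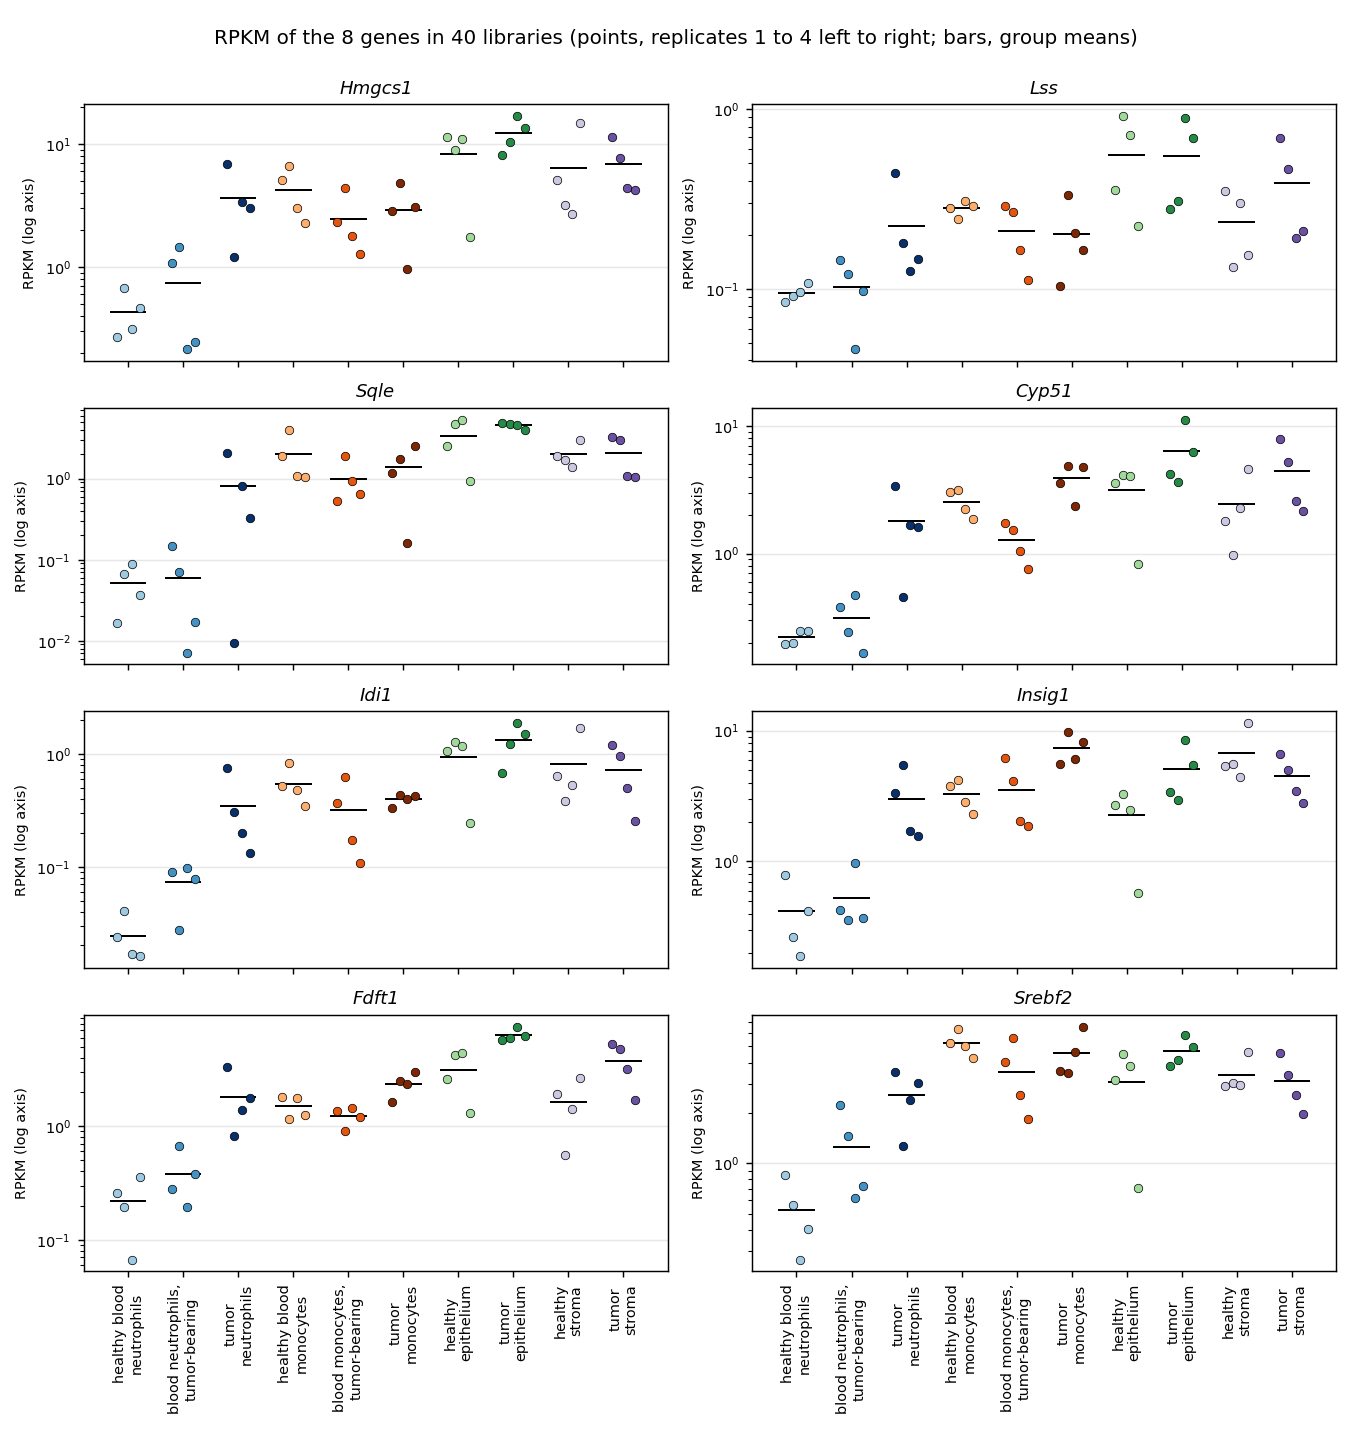
RPKM (log axis) of each of the 8 genes in every library, with the 4 replicates of each of the 10 groups as points and the group mean as a bar. All 8 genes have their lowest group mean in healthy blood neutrophils, and healthy epithelial library 4, the rightmost point of its group, is the lowest of that group for each gene.

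Healthy blood neutrophils had less mRNA of this pathway per library than healthy blood monocytes, with 7 of the 8 genes called lower. Of these, Idi1 and Sqle passed the filter on low counts through the monocytes alone, so they were bound to differ and support nothing, and 5 of the other 6 were called. This comparison asks how the 2 myeloid cell types differ before any tumor. In bulk samples, fewer cells that express a gene and less RNA per cell cannot be told apart. Values are CPM (counts adjusted for library size) after TMM scaling within the 8 libraries compared, called scaled CPM here. Where ranges are said to be separate, here or later, the share of all genes that are separate is not given. Such statements describe these values only and do not set the 8 genes apart from other genes. A gene was called where its adjusted p, from edgeR's quasi-likelihood test with Benjamini-Hochberg adjustment over all genes tested, was under 0.05. All adjusted p-values here are of this kind, and fold changes are log2 with their SE. Of all 15033 genes tested, 26.6% were called lower in neutrophils and 50.8% in either direction. With an absolute log2 fold change over 1.5 as well, the rule the study used, the same 7 members were called, Idi1 and Sqle included, beside 37.1% of all genes. By their titles, 2 of the 4 monocyte libraries were pools of the animals that gave the 4 neutrophil libraries, and the test treats them as independent. Libraries of the same group are not stated to be separate animals in every case, and p-values measure only the spread between these samples.

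Hmgcs1, whose enzyme makes HMG-CoA at the entry to the mevalonate pathway, was at 4.80, 10.6, 6.69 and 9.09 scaled CPM in healthy blood neutrophils and at 50.1, 72.7, 32.4 and 26.8 in monocytes (log2 fold change -2.54 ± 0.40, adjusted p = 0.000625). Idi1, the isomerase of the isoprene units, was at 0.427, 0.687, 0.380 and 0.337 against 5.48, 10.0, 5.50 and 4.40 (-3.75 ± 0.51, adjusted p = 0.000255). Every neutrophil library was below every monocyte library for both genes, and Idi1 rested on 4.02 to 13.2 expected counts in the neutrophils. Fdft1, the squalene synthase, was at 2.99, 1.95, 0.912 and 4.46 scaled CPM against 11.4, 8.20, 12.1 and 9.42 (-2.001 ± 0.49, adjusted p = 0.00750). Sqle was at 0.534, 1.80, 3.27 and 1.18 against 32.2, 74.7, 19.8 and 21.1 (-4.42 ± 0.65, adjusted p = 0.000431), on 4.85 to 42.8 expected counts in the neutrophils. These enzymes of the squalene step were again lower in each neutrophil library. Cyp51, the lanosterol demethylase, was at 4.59, 4.17, 6.92 and 6.31 scaled CPM against 38.8, 45.1, 30.9 and 28.5 (-2.70 ± 0.30, adjusted p = 8.7e-05). Lss was at 4.91, 4.65, 6.54 and 6.73 against 8.96, 8.75, 10.5 and 10.9 (-0.78 ± 0.32, adjusted p = 0.0668). Lss did not overlap between the groups but missed the threshold in edgeR, while limma-voom (adjusted p = 0.0429) and DESeq2 (adjusted p = 0.0187) called it and so called 8 of 8. Of all 15033 genes, limma-voom called 8011 and DESeq2 8362. Of the regulators, Insig1 was at 13.6, 4.01, 3.80 and 7.74 scaled CPM against 35.4, 44.0, 29.0 and 25.7 (-2.21 ± 0.45, adjusted p = 0.00257). Srebf2 was at 23.8, 13.7, 8.66 and 12.1 against 79.2, 109, 83.1 and 77.0 (-2.58 ± 0.32, adjusted p = 0.00017). Neither regulator overlapped between the cell types. The median log2 fold change was -2.56 over the 8 genes, Idi1 and Sqle included, and -0.07 over all genes tested.

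Among 12 tested of 14 other synthesis enzymes, 4 were called lower and 2 higher in this comparison, 6 of 12 where 50.8% of all genes were called in either direction and 26.6% lower. Here and in later comparisons, the counts and named genes of these lists include any that passed the filter on low counts through 1 group alone. The calls of such genes support nothing. The lower ones included Nsdhl (-4.42 ± 0.80, adjusted p = 0.00135), Hsd17b7 (-3.00 ± 0.69, adjusted p = 0.00529) and Dhcr7 (-2.67 ± 0.73, adjusted p = 0.0123), which modify sterols downstream of CYP51. The higher ones, named after their values were seen, were Lbr, a sterol reductase of the nuclear envelope (2.67 ± 0.27, adjusted p = 4.61e-05), and Sc5d, the sterol desaturase (2.47 ± 0.34, adjusted p = 0.000288). Without healthy monocyte library 2, 7 of these enzymes were called lower. Of 5 SREBP regulators, 3 were lower, the SREBP proteases Mbtps2 (-2.46 ± 0.33, adjusted p = 0.000246) and Mbtps1 (-1.31 ± 0.36, adjusted p = 0.0130) and the related factor Srebf1 (-0.92 ± 0.29, adjusted p = 0.0228). For uptake and intracellular transport, 4 of 6 tested genes were lower and 1 higher. The largest differences there were in Scarb1, the HDL receptor (-4.83 ± 0.47, adjusted p = 4.25e-05), Stard4, a cholesterol transfer protein (-3.00 ± 0.36, adjusted p = 0.000124), and Npc2, which binds cholesterol in lysosomes (-2.84 ± 0.41, adjusted p = 0.000354). For efflux, storage and oxysterols, 3 of 7 were lower and 2 higher. The sterol hydroxylase Cyp27a1 (-6.63 ± 0.66, adjusted p = 4.61e-05) and the sterol sensor Nr1h3 (-2.70 ± 0.85, adjusted p = 0.0235) were lower and Soat2, which esterifies cholesterol, was higher (5.03 ± 0.64, adjusted p = 0.000185). For fatty acid synthesis 6 of 8 were lower and 1 higher, led by the desaturase Fads1 (-5.46 ± 1.18, adjusted p = 0.00371), the synthase Fasn (-4.59 ± 0.93, adjusted p = 0.00256) and the desaturase Scd2 (-3.92 ± 0.58, adjusted p = 0.000421).

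Neutrophils from tumors had higher mRNA levels of 4 of the 8 genes than blood neutrophils of tumor-bearing mice. The called genes were Hmgcs1, Fdft1, Cyp51 and Insig1, beside 12.5% of all 13674 genes tested called higher and 17.9% called in either direction. All 4 also passed the fold threshold of the study, beside 16.3% of all genes. This comparison asks what distinguishes neutrophils in the tumor from those in circulation. The median log2 fold change was 2.23 over the 8 genes, Idi1 and Sqle included, and 0.11 over all genes.

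Cyp51 was at 47.1, 12.3, 28.2 and 26.3 scaled CPM in tumor neutrophil libraries 1 to 4 and at 6.25, 3.99, 8.89 and 3.01 in blood (2.36 ± 0.57, adjusted p = 0.0167). Insig1 was at 33.9, 108, 20.9 and 18.6 against 5.09, 4.24, 13.3 and 4.77 (2.72 ± 0.68, adjusted p = 0.0204). Both ranges were separate, and Insig1 was highest in library 2 whereas Cyp51 was highest in library 1. Fdft1 was at 22.8, 10.9, 11.5 and 14.1 against 2.27, 5.41, 1.80 and 3.27 (2.21 ± 0.59, adjusted p = 0.0257). Hmgcs1 was at 73.6, 24.9, 43.4 and 37.4 against 13.6, 18, 3.08 and 3.33 (2.23 ± 0.65, adjusted p = 0.0380). Again the highest library was tumor library 1 and no tumor value fell within the blood range. Idi1 was at 8.56, 6.75, 2.74 and 1.76 against 1.21, 0.369, 1.54 and 1.11 (2.22 ± 0.78, adjusted p = 0.0728). With 5.99 expected counts in blood library 2, Idi1 passed the filter on low counts only with the help of the tumor libraries. Its difference therefore supports nothing. Sqle was at 38.1, 0.316, 18.1 and 6.98 against 3.18, 1.47, 0.171 and 0.392 (3.58 ± 1.25, adjusted p = 0.0722). Sqle had the largest fitted difference and the widest spread, since tumor library 2 held 3.16 expected counts of it and lay within the blood range. At 2.05 and 6.04 expected counts in blood libraries 3 and 4, Sqle too passed the filter on low counts only with the help of the tumor libraries. The difference of Sqle therefore supports nothing either. Lss was at 15, 11.8, 5.22 and 5.82 against 5.80, 4.85, 2.14 and 4.25 (1.15 ± 0.62, adjusted p = 0.224). Srebf2 was at 57.7, 40.5, 47.6 and 58.0 against 43.4, 27.9, 13.8 and 15.2 (1.02 ± 0.43, adjusted p = 0.130). These last genes overlapped between tumor and blood.

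**Figure D2:**
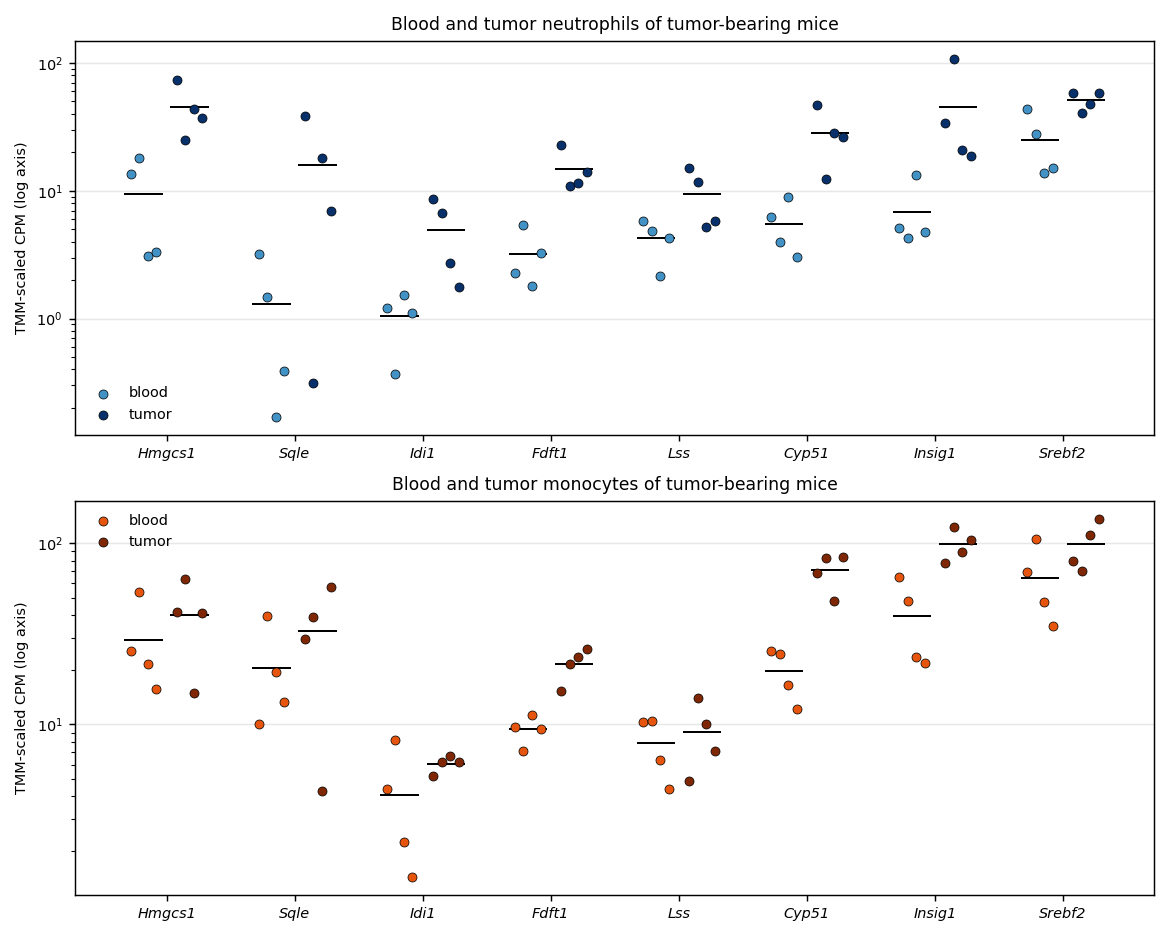
Scaled CPM (log axis) of the 8 genes in blood and tumor neutrophils (upper panel) and monocytes (lower panel) of tumor-bearing mice, each point 1 library and each bar the mean of 4. Tumor neutrophils are separate from blood for Hmgcs1, Idi1 (at low counts in blood), Fdft1, Cyp51 and Insig1, and tumor monocytes for Fdft1, Cyp51 and Insig1.

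The epithelial marker level moved with part of this result. Tumor neutrophil library 1, at 79.5% of the epithelial level, had the highest scaled CPM of the 4 for Hmgcs1, Sqle, Idi1, Fdft1, Lss and Cyp51. Without it, Cyp51 (2.02 on the log2 scale, adjusted p = 0.0403) and Insig1 (2.85, adjusted p = 0.0332) remained called. Hmgcs1 (1.90 ± 0.68, adjusted p = 0.0946) and Fdft1 (1.94 ± 0.58, adjusted p = 0.0517) did not, against 2.23 and 2.21 with all libraries. The 10 epithelial markers summed to 12.5 to 195 RPKM in the tumor neutrophils, against 0.660 to 1.57 in the blood neutrophils. Other marker lists were separate between the groups too. Neutrophil markers summed to 1904 to 12240 RPKM in tumor and 15240 to 19950 in blood, and monocyte markers to 83.0 to 293 against 448 to 666. Macrophage markers summed to 32.3 to 41.6 against 16.8 to 21.9, and those of antigen-presenting cells to 20.9 to 33.4 against 0.290 to 2.87. The part of RNA of other cells in the result was not tested. Mitochondrial shares were 17% to 37.5% in tumor and 9.36% to 16.8% in blood neutrophils. The calls also depended on the blood libraries. Without blood library 1 or 4, 0 of 8 were called by edgeR, with 7 and 6 at an unadjusted p under 0.05. With all libraries, 4435 of 13674 genes had an unadjusted p under 0.05 in edgeR. Without blood library 2 the called genes were Hmgcs1 and Fdft1, and without blood library 3 they were Cyp51 and Insig1. DESeq2 called 6 of 8, adding Sqle and Idi1, beside 3767 of 13674 genes tested. The calls of Sqle and Idi1 support nothing, as above.

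**Figure D3:**
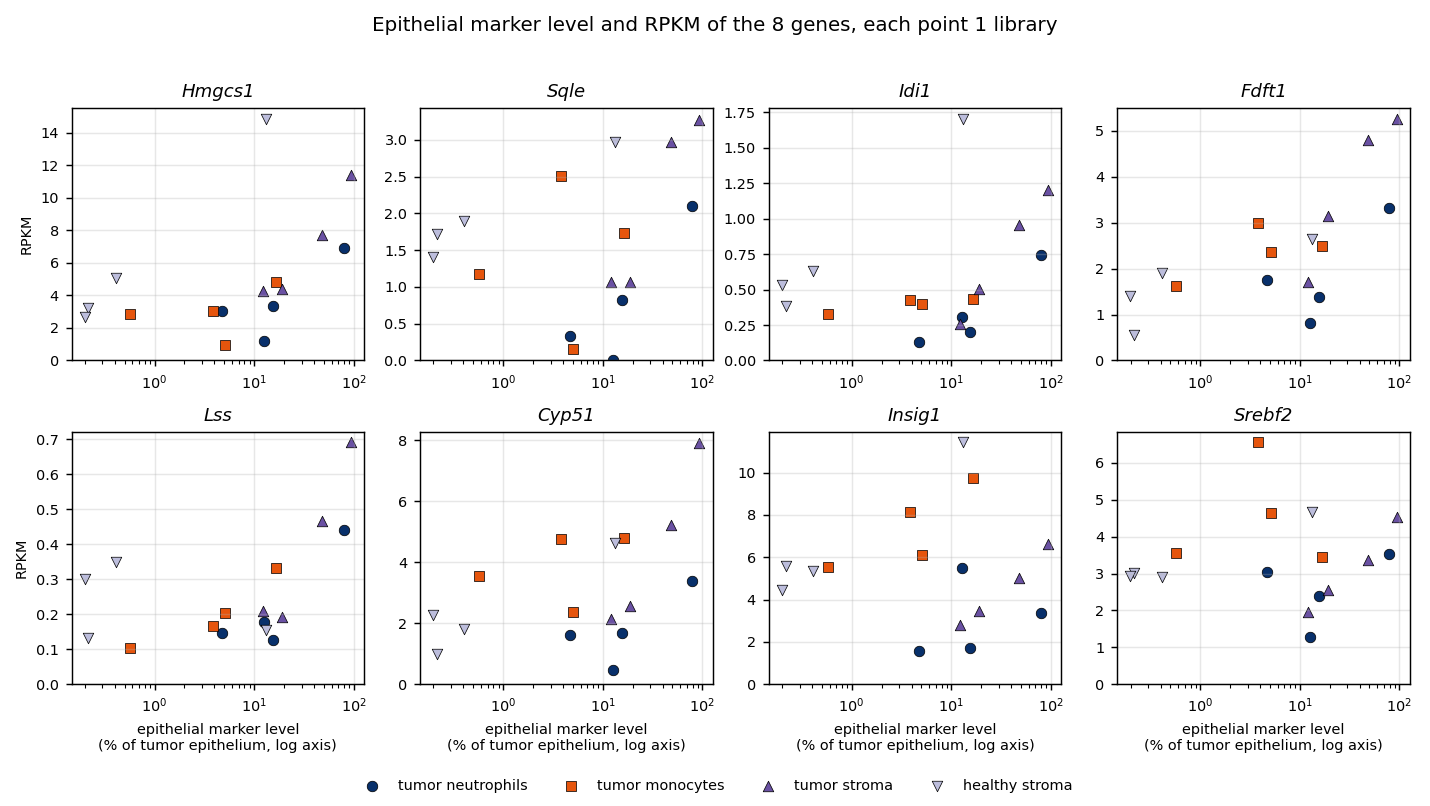
RPKM of each gene (vertical axis, from 0) against the epithelial marker level of the same library (percent of the tumor epithelial mean, log axis), for the tumor neutrophil, tumor monocyte, tumor stromal and healthy stromal libraries. Tumor neutrophil library 1 at 79.5% and tumor stromal libraries 1 and 2 at 93.9% and 48.4% are the highest of their groups for Hmgcs1, Sqle, Idi1, Fdft1, Lss and Cyp51, while Insig1 is highest among tumor neutrophils in library 2 at 12.7%.

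In the same tumor neutrophils, 7 of 9 tested genes of fatty acid synthesis were called higher, beside 12.5% of all genes. The median log2 fold change was 5.11 over the list. Fasn was at 15.2 to 75.4 scaled CPM in tumor and 0.171 to 1.51 in blood neutrophils (6.43 ± 0.86, adjusted p = 0.00105). Scd1, the stearoyl-CoA desaturase, was at 2.85 to 95.4 against 0.353 to 0.588 (6.12 ± 1.03, adjusted p = 0.00279), and Fads2, a fatty acid desaturase, at 1.52 to 14.4 against 0.0614 to 0.171 (5.59 ± 0.99, adjusted p = 0.00363). The blood values of Scd1 and Fads2 were near those of a few counts, so their fold changes depend on the prior count of the fit. Fasn, Scd1 and Fads2 passed the filter on low counts only with the help of the tumor libraries, so their calls support nothing. The count of 7 and the median include them. Without tumor library 1, 5 genes of the list were called, and without blood library 2 or 3, 4 were. Of 11 tested synthesis enzymes other than the 8, 2 were called higher, with Acat2, a thiolase, among them (3.73 ± 0.87, adjusted p = 0.0145), and 1 lower, Lbr (-1.81 ± 0.49, adjusted p = 0.0287). Without blood library 2, 0 of these enzymes were called. Neither the 5 SREBP regulators nor the 7 tested uptake and transport genes held a called gene. Abca1, the cholesterol efflux pump, was the single called gene of 6 in the efflux list. It was at 257 to 707 scaled CPM in tumor and 10.8 to 36.9 in blood neutrophils (4.78 ± 0.54, adjusted p = 0.000605).

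In monocytes, tumor samples were higher than blood samples for 3 of the 8 genes, Fdft1, Cyp51 and Insig1. Of all 15280 genes tested, 10.9% were called higher and 17.1% in either direction. By the fold threshold of the study 1 member, Cyp51, was called beside 11.7% of all genes. Cyp51 was at 68.2, 83.2, 48.1 and 84.0 scaled CPM in tumor and 25.3, 24.5, 16.5 and 12.1 in blood monocytes (1.85 ± 0.32, adjusted p = 0.00313). Insig1 was at 77.5, 123, 89.8 and 104 against 65.0, 47.8, 23.6 and 21.7 (1.32 ± 0.37, adjusted p = 0.0329). Fdft1 was at 15.3, 21.4, 23.5 and 25.9 against 9.66, 7.11, 11.3 and 9.42 (1.20 ± 0.34, adjusted p = 0.0335). The tumor and blood libraries were separate for all 3. The other 5 genes overlapped, with log2 fold changes from 0.20 ± 0.49 for Lss to 0.67 ± 0.66 for Sqle and adjusted p-values of 0.265 or more. Tumor library 3 was the lowest tumor library for Hmgcs1 (14.8 scaled CPM) and Sqle (4.27), below every blood library. Cyp51 was called without each single library and under every alternative tried. It was the only one of the 8 called without tumor library 2, whose epithelial level was 16.6%, without tumor library 4, and without blood library 3 or 4. Monocyte markers summed to 1030 to 1363 RPKM in tumor and 2330 to 3979 in blood monocytes and did not overlap, and macrophage markers summed to 77.2 to 113 against 61.9 to 203. The epithelial markers summed to 1.84 to 43.0 against 0.839 to 1.19. The part of cell makeup in these differences was not tested.

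Around these genes, tumor monocytes showed 0 called genes among 13 tested synthesis enzymes and among 5 SREBP regulators. Of 7 uptake and transport genes, Mylip, which encodes a ligase that degrades lipoprotein receptors, was higher (1.84 ± 0.32, adjusted p = 0.00327), and Scarb1 (-2.20 ± 0.34, adjusted p = 0.00174) and Lipa, the lysosomal lipase (-0.996 ± 0.21, adjusted p = 0.0093), were lower. Abca1 was at 701 to 1370 scaled CPM in tumor and 24.2 to 30.2 in blood monocytes (5.36 ± 0.27, adjusted p = 2.18e-06), and Cyp27a1 was lower (-2.12 ± 0.40, adjusted p = 0.00463). Of 8 fatty acid synthesis genes, Scd1 (2.34 ± 0.60, adjusted p = 0.0233) and Scd2 (1.29 ± 0.33, adjusted p = 0.0231) were higher, and 0 of the list were called without tumor library 4 or blood library 4.

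The difference between these 2 responses was tested directly, as the tumor-to-blood change of neutrophils minus that of monocytes in 1 fit of 16 libraries. By their titles, 3 of the 4 tumor neutrophil libraries share an animal with a tumor monocyte library. So do 3 of the 4 blood neutrophil libraries with a blood monocyte library, and some tumor and blood libraries share one too. The fit treats all of them as independent. Of the 8 genes, 0 were called by edgeR and 0 had an unadjusted p under 0.05. Of all 17465 genes, 3.99% were called and 3634 had an unadjusted p under 0.05. DESeq2 and limma-voom also called 0, with 2 and 1 at an unadjusted p under 0.05, beside 4193 and 3328 of all genes. The fitted differences ran from 0.26 ± 0.58 for Srebf2 to 2.74 ± 1.42 for Sqle, all positive, so the size of a difference between the cell types was poorly bounded. In the same fit 4 of 10 fatty acid synthesis genes were called with a larger difference in neutrophils, Fasn, Acaca, Elovl6 and, named after its value was seen, Scd2. The background in that direction was 2.73% of all genes, and 2 of the list were called without tumor monocyte library 4 or blood neutrophil library 2 or 4.

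Circulating cells of tumor-bearing and healthy mice were compared to ask whether the tumor state reaches the blood. In blood neutrophils 0 of 7 tested genes were called, beside 6.52% of 13360 genes, and Idi1 fell below the filter on low counts at 0.438 to 1.85 against 0.286 to 0.566 scaled CPM. Srebf2 alone of the 7 had an unadjusted p under 0.05, as did 2931 of all genes tested. It was at 51.7, 33.1, 16.5 and 18.4 scaled CPM in tumor-bearing and 20.3, 11.3, 7.04 and 10.3 in healthy mice (1.30 ± 0.44, adjusted p = 0.112). Healthy library 1 lay above tumor-bearing libraries 3 and 4, and DESeq2 called this gene while limma-voom called 0. The other 6 had log2 fold changes from 0.10 ± 0.38 for Lss to 0.82 ± 0.56 for Fdft1. In the other lists Stard4 (2.05 ± 0.52, adjusted p = 0.0450), Lbr (0.65 ± 0.17, adjusted p = 0.0468) and Soat1, which esterifies cholesterol (0.87 ± 0.20, adjusted p = 0.0317), were higher. Mylip (-0.93 ± 0.22, adjusted p = 0.0330), and Lipa (-0.88 ± 0.21, adjusted p = 0.0327), were lower. Without blood neutrophil library 2 of the tumor-bearing mice, 0 genes of these lists were called. Neutrophil markers summed to 15240 to 19950 RPKM in blood neutrophils of tumor-bearing mice and 3687 to 8468 in those of healthy mice. Monocyte markers summed to 448 to 666 against 291 to 407. The part of cell makeup in the differences of blood neutrophils was not tested.

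In blood monocytes 0 of 8 were called, where 0.216% of 15313 genes were. DESeq2 and limma-voom called 0 as well, each with 1 at an unadjusted p under 0.05, beside 1877 and 1448 of all genes. In edgeR, Cyp51 alone of the 8 had an unadjusted p under 0.05, beside 1507 of all genes. It was at 28.2, 27.8, 18.6 and 13.5 scaled CPM in tumor-bearing and 44.8, 52.5, 35.3 and 32.5 in healthy mice (-0.91 ± 0.31, adjusted p = 0.351). The tumor-bearing libraries all lay below the healthy ones. The other genes ranged from -0.88 ± 0.54 for Sqle to 0.20 ± 0.38 for Insig1 and overlapped between the groups. The blood monocytes of tumor-bearing mice are also the reference of the tumor monocyte comparison above. No gene of the other 5 pathway lists was called here.

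Between tumor and healthy epithelium 0 of the 8 genes were called, beside 22.6% of 16085 genes, and DESeq2 and limma-voom also called 0. Whether the levels were equal was not tested. With DESeq2 and limma-voom, 1 of the 8 had an unadjusted p under 0.05, beside 5945 and 6065 of all genes. In edgeR, Insig1 alone of the 8 did, beside 5542 of all genes. It was at 27.3, 23.8, 44.5 and 35.7 scaled CPM in tumor and 26.8, 23.3, 17.5 and 20.9 in healthy epithelium (0.57 ± 0.25, adjusted p = 0.129). Lss was at 7.50, 8.41, 15.7 and 15.3 against 11.9, 21.9, 17 and 27.4 (-0.73 ± 0.35, adjusted p = 0.166). Both genes overlapped between the groups. Hmgcs1 was at 68.3, 88.3, 92.5 and 93.1 against 120, 66.7, 81.3 and 67.3 (0.03 ± 0.22, adjusted p = 0.944), and Sqle, Idi1 and Srebf2 were within 0.12 of 0 on the log2 scale, each with an SE of at most 0.27. Fdft1 (0.38 ± 0.23) and Cyp51 (0.39 ± 0.23) lay between. Scaling mattered for this comparison. On deposited RPKM, log2(RPKM + 0.1), the median of all genes was 0.58 higher in tumor epithelium, and the values of Sqle and Idi1 turned from -0.05 and -0.07 to 0.67 and 0.56, about the shift of all genes. Without healthy library 4, Fdft1 was called. Of 14 other synthesis enzymes, 1 was called lower and 0 higher. Among the other lists, Abca1 (2.92 ± 0.45, adjusted p = 0.00115) and Scd1 (1.97 ± 0.22, adjusted p = 0.000175) were higher in tumor epithelium and Acss2, which activates acetate, was lower (-2.51 ± 0.27, adjusted p = 0.000145). Smaller differences were called in Lrp8, a lipoprotein receptor (0.99 ± 0.31, adjusted p = 0.0421), Soat1 (0.79 ± 0.24, adjusted p = 0.0392), Mbtps1 (0.74 ± 0.21, adjusted p = 0.0278) and Lipa (-0.94 ± 0.24, adjusted p = 0.0180). Without tumor library 1 or 4 or healthy library 3, 0 SREBP regulators and 0 uptake and transport genes were called. Monocyte markers summed to 26.9 to 149 RPKM in tumor and 2.05 to 13.4 in healthy epithelium. Endothelial markers summed to 4.29 to 4.61 against 0.0459 to 0.365, and erythroid markers to 21.9 to 62.9 against 0.485 to 15.8. Neutrophil markers went the other way, at 0.921 to 4.40 against 6.68 to 12.4. The part of cell makeup in the differences of epithelium was not tested.

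In stroma, 0 of 8 genes were called between tumor and healthy colon, beside 9.55% of 19081 genes. Fdft1 alone of the 8 had an unadjusted p under 0.05 in edgeR, beside 4733 of all genes. It was at 44.3, 48.1, 24.6 and 14.1 scaled CPM in tumor and 12.1, 3.98, 8.83 and 18.3 in healthy stroma (1.60 ± 0.54, adjusted p = 0.0990), and DESeq2 called it while limma-voom called 0. Cyp51 was at 135, 107, 40.7 and 35.7 against 23.3, 14.3, 29.0 and 65.0 (1.27 ± 0.58, adjusted p = 0.215). The high values were those of tumor libraries 1 and 2 and healthy library 4, which also had the highest epithelial marker levels of their groups (93.9%, 48.4% and 13.2%). Hmgcs1 followed the same libraries, at 148, 120, 52.6 and 54.3 against 50.0, 35.9, 26 and 159 (0.47 ± 0.61, adjusted p = 0.680). With tumor libraries 1 and 2 left out, the fitted value of Hmgcs1 was -0.31 and that of Srebf2 -0.31. With healthy library 4 left out as well, it was 0.52 for Hmgcs1 and 1.22 for Fdft1, with 0 of 8 called under either choice. The fibroblast markers, at 360 to 2017 against 6.03 to 24.1 summed RPKM, did not overlap between the groups either. The part of epithelial RNA and of cell makeup in these values was not tested. In the other lists Lrp8 (2.43 ± 0.50, adjusted p = 0.0208), Soat1 (1.61 ± 0.38, adjusted p = 0.0314) and Stard4 (1.23 ± 0.27, adjusted p = 0.0244) were higher in tumor stroma and Npc1l1, the sterol importer of the gut, was lower (-3.57 ± 0.92, adjusted p = 0.0439). Without tumor library 2 or healthy library 1 or 2, 0 genes of these lists were called.

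Within healthy colon, epithelial cells had higher levels than stroma for 5 of the 8 genes. These were Sqle, Fdft1, Lss, Cyp51 and Srebf2, beside 15.6% of 18468 genes called higher and 38.1% in either direction. By the fold threshold of the study 3 were called, Sqle, Fdft1 and Lss, beside 30.9% of all genes. Lss was at 15.2, 27.1, 21.2 and 33.8 scaled CPM in epithelium and 7.76, 3.39, 6.69 and 3.51 in stroma (2.18 ± 0.40, adjusted p = 0.00217). Fdft1 was at 22.4, 25.3, 25.8 and 39.4 against 8.47, 2.84, 6.29 and 12 (1.93 ± 0.43, adjusted p = 0.00633). Sqle was at 57.7, 75.2, 84.2 and 75.9 against 22.4, 23.3, 16.7 and 35.8 (1.58 ± 0.27, adjusted p = 0.00174). Each was separate between the cell types. Cyp51 was at 61.7, 50.1, 48.8 and 51.2 against 16.3, 10.2, 20.7 and 42.8 (1.24 ± 0.40, adjusted p = 0.0368). Srebf2 was at 65.0, 63.7, 54.2 and 52.0 against 31.0, 37.0, 31.2 and 50.7 (0.65 ± 0.23, adjusted p = 0.0492). Hmgcs1 was at 153, 82.7, 101 and 83.0 against 35.1, 25.6, 18.5 and 104 (1.19 ± 0.52, adjusted p = 0.102). Stromal library 4 was the highest stromal library for these last genes and reached into the epithelial range for Hmgcs1 and Idi1 (13 against 11.6 to 15.3 scaled CPM). Insig1 had the opposite sign, at 34.2, 28.9, 21.7 and 25.8 in epithelium and 35.2, 42.2, 29.3 and 77.0 in stroma (-0.73 ± 0.33, adjusted p = 0.109).

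Healthy library 4 carried weight in both cell types here. Both libraries carry the letter a in place of an animal number in their titles. Stromal library 4 had an epithelial level of 13.2%, and epithelial library 4 a mitochondrial share of 83.9%. Without stromal library 4, 7 of the 8 genes were called higher in epithelium, all but Insig1. The share of all genes called in this and other fits with libraries left out is not given here. Without any single one of libraries 1 to 3 of either cell type, Sqle, Fdft1 and Lss were called, and without epithelial library 4 Srebf2 was called beside them. With both libraries 4 left out the count was 7 as well, and Hmgcs1 was at 2.19 on the log2 scale (adjusted p = 0.00123). On deposited RPKM, log2(RPKM + 0.1), the median of all genes was 0.92 lower in epithelium, and only Insig1 was called, as lower. Relative to that shift, the other 7 genes were higher in epithelium. In the wider pathway 9 of 14 other synthesis enzymes were called higher and 1, Fdps, lower. Msmo1 (2.33 ± 0.39, adjusted p = 0.00155) and Dhcr7 (2.31 ± 0.47, adjusted p = 0.00367), enzymes of the later sterol steps, were among those higher. For fatty acid synthesis 6 of 10 were higher and 0 lower, led by Acss2 (2.82 ± 0.32, adjusted p = 0.000201), the elongase Elovl6 (1.56 ± 0.29, adjusted p = 0.00261) and Scd2 (1.42 ± 0.30, adjusted p = 0.00489), and 3 were higher without stromal library 2. In contrast, 2 of 8 uptake and transport genes were higher and 3 lower. Scarb1 (-3.68 ± 0.60, adjusted p = 0.00129) and Mylip (-1.71 ± 0.39, adjusted p = 0.00697) were lower and Stard4 was higher (2.15 ± 0.26, adjusted p = 0.000287). For efflux, storage and oxysterols the called genes were Ch25h, a cholesterol hydroxylase (-9.19 ± 1.48, adjusted p = 0.00353), Abca1 (-3.43 ± 0.51, adjusted p = 0.000843) and Soat1 (1.11 ± 0.33, adjusted p = 0.0254).

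The tumor-to-healthy difference was also compared between epithelium and stroma in 1 fit of 16 libraries. Of the 8 genes 0 were called, beside 15.1% of 20901 genes. Lss alone of the 8 had an unadjusted p under 0.05 (-1.86 ± 0.64, adjusted p = 0.0633), beside 6008 of all genes. DESeq2 called Lss, beside 4468 of all genes, while limma-voom called 0. It was also called without tumor stromal library 3 or 4.

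**Figure D4:**
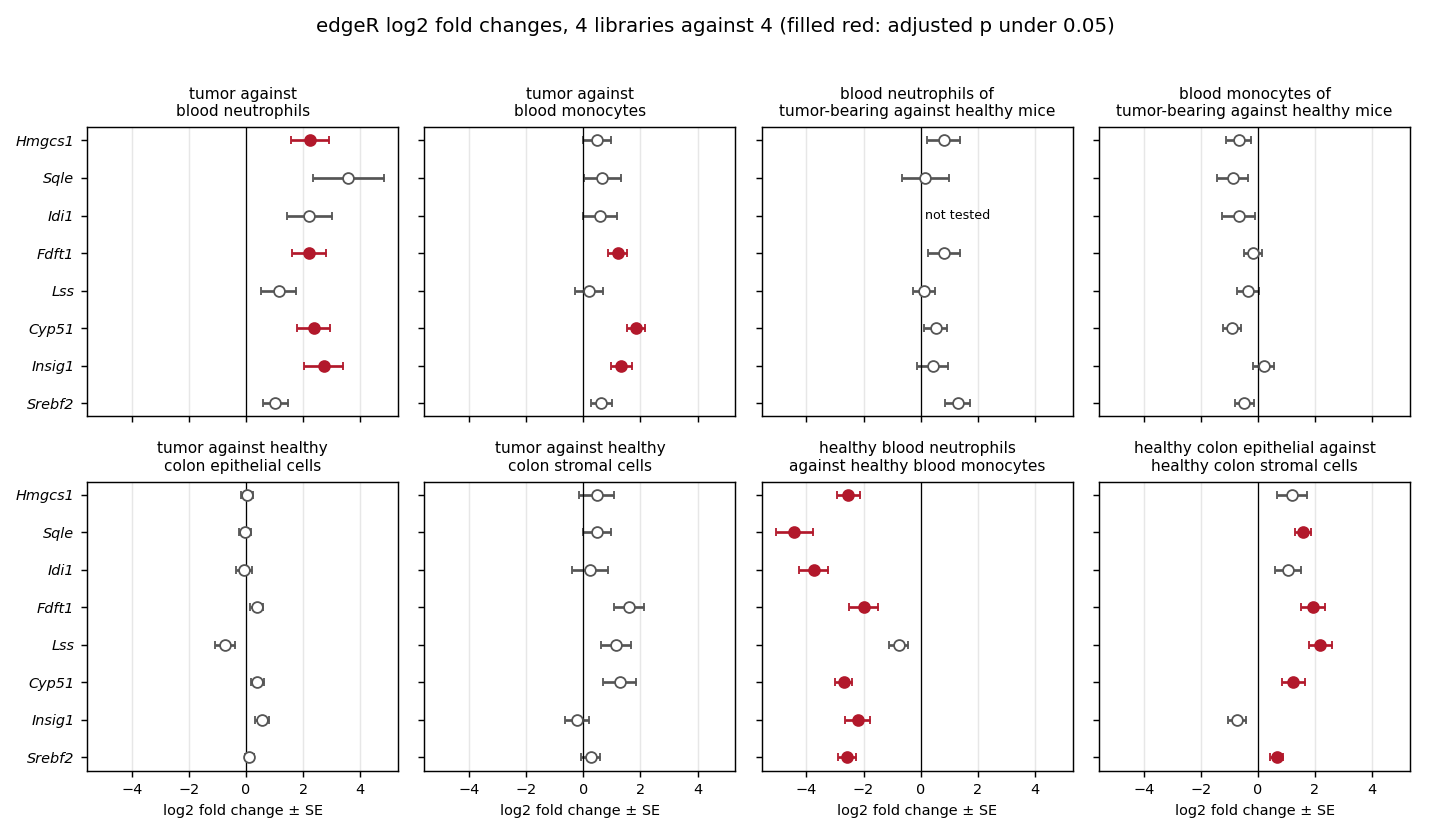
Log2 fold change with its SE (edgeR, 4 libraries against 4) of each gene in the 8 pairwise comparisons, with filled red points where the adjusted p is under 0.05. Calls appear in 4 panels, 4 higher in tumor neutrophils, 3 higher in tumor monocytes, 7 lower in healthy blood neutrophils than monocytes (Idi1 and Sqle at low counts in the neutrophils) and 5 higher in healthy epithelium than stroma, and 0 in the 4 panels of tumor-bearing against healthy mice.

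The 8 genes varied together over the 40 libraries. Pearson's r of log2(RPKM + 1) ranged from 0.459 (Lss and Insig1) to 0.929 (Hmgcs1 and Idi1) over the 28 pairs, with a median of 0.781. After each group's mean was subtracted, r ranged from 0.419 (Fdft1 and Insig1) to 0.847 (Hmgcs1 and Cyp51), with a median of 0.663. These are descriptions, since genes measured in the same libraries share depth, mitochondrial share and any RNA of other cells. Over all libraries every pair of enzymes had an r of 0.750 or more, whereas Insig1 had 0.459 to 0.685 with the enzymes other than Cyp51. The 5 genes outside the 8 with the highest r to their mean standardized profile, among 8235 genes with a mean of at least 1 RPKM, were Anxa4 (0.957), Ipo5 (0.955), Gm14857 (0.945), Tcp1-ps1 (0.944) and Abce1 (0.943). Of the pathway lists, Acat2 ranked 17 (0.920), Fasn 19 (0.918), Scd2 27 (0.911) and Stard4 29 (0.910). Lbr ranked 8120, with r = -0.785.

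**Figure D5:**
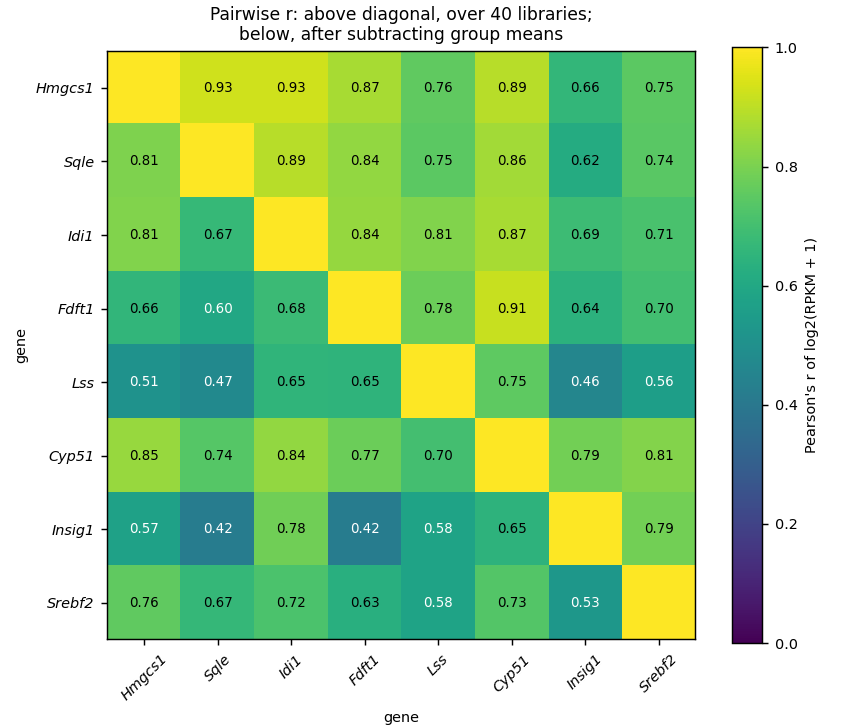
Pearson's r of log2(RPKM + 1) for each pair of the 8 genes, over all 40 libraries above the diagonal and after subtracting group means below it, on a color scale from 0 to 1. Hmgcs1, Sqle, Idi1, Fdft1 and Cyp51 form the pairs with the highest values over all libraries (0.838 to 0.929), and pairs with Insig1 or Lss are lower.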

How the data were processed

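The study sequenced RNA of sorted cells, amplified with a NuGEN Ovation kit, as single reads on an Illumina HiSeq, with base calling by bcl2fastq. Per the submitters' processing notes, reads were mapped to mm10 with Bowtie2, and the authors deposited expected counts and RPKM for 45706 genes. The annotation release, the handling of reads with several matches and the use of strand are not given in the sources used here. Of the nonzero deposited expected counts, 99.6% were not whole, and they were rounded for the tests, which changed a library total by at most 1105. Deposited RPKM served for levels and correlations. Symbols were matched for 45143 genes.

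Groups came from the group label of each sample, and each comparison was fitted with edgeR 4.0.16 in R 4.3.3 (quasi-likelihood test with robust dispersions, TMM scaling, filterByExpr) on 4 against 4 libraries, or 16 for differences between differences, with Benjamini-Hochberg adjustment over all genes tested. The study itself used limma with voom. Alternatives were limma 3.58.1, DESeq2 1.42.0, RLE scaling, other filters on low counts, a fit of all 40 libraries, counts without mitochondrial genes, RPKM on a log2 scale with a pseudocount of 1 or 0.1, a replicate block and each library left out. The fitting steps were tested on simulated data. Of genes given an absolute log2 change of 2, 3.1% to 62.4% were recovered, depending on the comparison. A gene that was not called is therefore not shown to be unchanged. The 8 genes and the gene and marker lists were chosen with earlier results of these data known. Beside the 8, up to 3 genes of each list with the largest called difference were named in each comparison, plus the 5 genes with the highest correlation. The values of 1 listed gene are not reported here. Animal numbers in the titles show that libraries of different groups often came from the same animal, which the tests treat as independent. The 4 healthy blood neutrophil libraries share animals with 2 of the 4 healthy blood monocyte libraries, and 3 of the 4 tumor neutrophil libraries with tumor monocyte libraries. In tumor-bearing mice, 3 of the 4 blood neutrophil libraries share animals with blood monocyte libraries, and tumor and blood libraries share some as well. Total counts limit the precision of low genes, which were filtered per comparison.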

Additional observations from a re-analysis of the deposited data

Results flagged for a closer look

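Among 80 sets of 4 libraries (8 genes in 10 groups), 4 held a library whose distance to the nearest other library, over the range of its set, was above Dixon's 95% critical value, and chance flags about 1 in 20 sets. Insig1 was at 0.972 RPKM in blood neutrophil library 3 of the tumor-bearing mice. In healthy stromal library 4, Insig1 was at 11.4 RPKM and Srebf2 at 4.66 RPKM, the highest of that group for both regulators, and the epithelial marker level of this library was 13.2%. Lss was at 0.439 RPKM in tumor neutrophil library 1, whose epithelial marker level was 79.5%. The part of that RNA in these values was not tested.

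The tumor-to-blood difference of neutrophils minus that of monocytes was tested by edgeR as the difference between the differences. On the log2 scale it was 3.49 for Acat2 (adjusted p = 0.0356), 5.86 for Cyp27a1 (adjusted p = 0.0157) and 4.83 for Fasn (adjusted p = 0.0183). It was 4.42 for Acaca, the acetyl-CoA carboxylase (adjusted p = 0.0440), 5.24 for Elovl6 (adjusted p = 0.0221) and 3.66 for Scd2 (adjusted p = 0.00813). Cyp27a1 was itself called lower in tumor than in blood monocytes and was not called in neutrophils. For Acat2 the call was lost without tumor neutrophil library 1, among others.

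The tumor-to-healthy difference of epithelium minus that of stroma was -2.42 for Dhcr7 (adjusted p = 0.0291), -1.38 for Stard4 (adjusted p = 0.0141), 2.23 for Abca1 (adjusted p = 0.0337) and -2.31 for Acss2 (adjusted p = 0.000805), again on the log2 scale. The stromal groups differed in fibroblast markers, at 360 to 2017 summed RPKM in healthy and 6.03 to 24.1 in tumor stroma, and the part of cell makeup in these differences was not tested.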

How the results depend on the processing

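Of 63 fold changes of the 8 genes in the pairwise comparisons, 19 were past the threshold. Of these, 8 stayed past it under every alternative that tested them (7 genes in healthy blood neutrophils against monocytes, and Cyp51 in tumor against blood monocytes), where Sqle and Idi1 could not be tested with at least 10 counts in every library, and 11 with each library left out, while 1 reversed, Srebf2 in healthy epithelium against stroma, at -0.22 and -0.38 on RPKM with a pseudocount of 1 and 0.1. The number of the 8 called changed as follows, with the number of all genes called beside it where no library was left out. In healthy blood neutrophils against monocytes it was 8 with limma-voom and with DESeq2, beside 8011 and 8362 of 15033 genes. It was also 8 on RPKM with a pseudocount of 1 and 0.1, beside 8512 and 8666. With at least 10 counts in every library it was 6 of 6 tested, beside 5034 of 9352. In tumor against blood neutrophils it was 6 with DESeq2, Sqle and Idi1 included, beside 3767 of 13674 genes. It was 6 in the fit of all 40 libraries, beside 7194 of 22122. It was 2 without a filter on low counts, beside 2686 of 31530, and 2 with the replicate block, beside 1424 of 13674. With 1 library left out it was 0 to 5. In tumor against blood monocytes it was 1 without a filter, beside 2324 of 31218 genes, and 1 in the fit of all 40 libraries, beside 3492 of 22122. It was 1 on RPKM with a pseudocount of 1 and 0.1, beside 3070 and 3214 of 15280, and 1 to 3 with 1 library left out. In blood neutrophils of tumor-bearing against healthy mice it was 1 with DESeq2, with the fit of 40 libraries and with the block. These called 1737 of 13360, 438 of 22122 and 482 of 13360 genes. In stroma it was 1 under the same 3 alternatives, beside 3624 of 19081, 2523 of 22122 and 1497 of 19081 genes. In epithelium it was 0 to 1 with 1 library left out. In healthy epithelium against stroma it was 7 with limma-voom, beside 7909 of 18468 genes, and 3 without a filter, beside 7826 of 33918. It was 3 in the fit of 40, beside 7326 of 22122. On RPKM with a pseudocount of 1 and 0.1 it was 1, beside 7703 and 7668 of 18468. With 1 library left out it was 3 to 7. For the difference between epithelium and stroma it was 1 with DESeq2, beside 4468 of 20901 genes, and 0 to 1 with 1 library left out.

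Of the fold changes not past the threshold, 15 reversed somewhere, and the cause was not tested. On RPKM with a pseudocount of 1 and 0.1, Lss in tumor against blood monocytes was -0.01 and -0.05, Sqle in epithelium 0.48 and 0.67, Idi1 in epithelium 0.27 and 0.56, Sqle in stroma -0.01 and -0.06, Idi1 in stroma -0.05 and -0.11 and Srebf2 in stroma -0.11 and -0.15. With a pseudocount of 0.1 alone, Insig1 in blood monocytes was -0.02 and Lss in epithelium 0.00. Sqle in epithelium was 0.01 without a filter and 0.01 with at least 10 counts in every library. Sqle in blood neutrophils of tumor-bearing against healthy mice was -0.22 with limma-voom. Without tumor stromal libraries 1 and 2, Hmgcs1 in stroma was -0.31, Sqle -0.63, Idi1 -0.83 and Srebf2 -0.31. With healthy stromal library 4 left out too, a choice made after seeing the data, Sqle was -0.37, Idi1 -0.16, Lss -0.08 and Srebf2 -0.11. With 1 library left out, Lss in tumor against blood monocytes ranged from -0.09 to 0.40. In blood neutrophils of tumor-bearing against healthy mice Sqle ranged from -0.77 to 0.66, Lss from -0.08 to 0.32 and Insig1 from -0.11 to 0.93. Insig1 in blood monocytes ranged from -0.14 to 0.40. In epithelium Hmgcs1 ranged from -0.08 to 0.25, Sqle from -0.15 to 0.08 and Idi1 from -0.13 to 0.11, and in stroma Idi1 from -0.06 to 0.94 and Insig1 from -0.43 to 0.21.

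Same-numbered libraries mostly carry different animal numbers in their titles, so the numbers do not pair the samples. Deviations from the group means correlated at -0.151 to 0.251, with at most 2 of 4 pairs above 0.1 in a comparison. The replicate block gave -0.25 for Sqle in blood neutrophils and 0.24 for Insig1 in stroma, with the counts of calls above, and 1424 genes of all called in tumor against blood neutrophils against 2442 without it.

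Over all genes, DESeq2 called 3767 in tumor against blood neutrophils, 1737 against 871 in blood neutrophils, 449 against 33 in blood monocytes, 3624 against 1822 in stroma and 2005 against 696 for the difference between neutrophils and monocytes. The fit of 40 libraries called 7194 in tumor against blood neutrophils. On RPKM with a pseudocount of 0.1 the median of all genes moved to -0.63 in healthy neutrophils against monocytes, -0.26 in tumor against blood monocytes and -0.30 in stroma. The split of calls moved with it, to 1968 higher and 626 lower in epithelium (1708 and 1924 with TMM) and 1103 and 6565 in healthy epithelium against stroma (2880 and 4157). Depth limited Sqle and Idi1 in blood neutrophils, which held 2.05 to 62.6 and 4.02 to 24.4 expected counts.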
